A study of Mus musculus with 9 samples.

Results

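The RIKEN-named testis coding genes are protein-coding genes that carry the name of a mouse cDNA clone in the annotation of these data. They come from 6 clone series (names that begin like 1700010I14Rik, 4921509C19Rik, 4930415O20Rik, 4931423N10Rik, 4932443I19Rik or 4933402J07Rik). They were taken from the table by that name pattern and the biotype protein_coding, with no measured value used, which gave 249 genes of the 38674 listed and of the 21019 coding ones. The libraries came from whole testis, without the tunica albuginea, of 9 male C57BL/6 mice. The 3 genotypes, with 3 animals in each, were homozygous wild type (Pfn3+/+, here WT), heterozygous for the deletion (Pfn3+/-, Het) and homozygous for it (Pfn3-/-, KO). Pfn3 encodes profilin 3, a testis profilin of developing spermatids, and the mutant alleles were made with CRISPR/Cas9 in fertilized eggs, so that the deletion is present in every cell. Several deletion lines were established, and the line and the litters of the animals used for these libraries are not given in the sources used here. The males were sexually mature, aged 2 to 6 months. QuantSeq libraries read each mRNA from its 3′ end, so levels are given as normalized counts (reads divided by a size factor per animal), not divided by gene length.

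Clone names of this kind come from full-length cDNA libraries, and the names with these prefixes are mostly testis clones. A clone name stays until a gene family or function is assigned. The names here are those of the annotation of these data, and some members now have another symbol or a described function. Most testis-restricted coding genes are switched on in meiotic spermatocytes or in haploid spermatids, where transcription factors such as MYBL1, RFX2 and CREM act. Spermatids then condense their chromatin and build the acrosome and the flagellum with transcripts stored earlier.

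The annotation has moved on since the names were given. By symbol, 244 of the 249 genes matched the RefSeq table, and 51 of them now carry another symbol there, such as Spem2 (4933402P03Rik), Llcfc1 (1700034O15Rik), Tex48 (1700018C11Rik) and Ubqln5 (4931431F19Rik). RefSeq lists 217 of them as protein coding, 20 as long non-coding RNA, 5 as transcribed pseudogene and 2 as other RNA. The members had shorter gene models than other coding genes in GENCODE M21, with a median of 4 exons and 232 codons against 7 exons and 398 codons. Fewer than 200 codons were annotated for 38.2% of members and for 15.0% of other coding genes. The canonical polyadenylation hexamer AATAAA lay in the last 50 bases of 56.6% of member transcripts and of 57.7% of other coding transcripts, so the 3′ ends that QuantSeq reads did not stand apart in this respect. By chromosome, 26 members (10.4%) lie on the X, against 4.18% of other coding genes. Exons of another gene lie on the opposite strand of 54 members and on the same strand of 5. At least 1 50-base window in the last 500 transcript bases was also found in a transcript of another gene for 46 of the 249, and at least 50% of those windows for 18. Windows were matched on either strand, so the other gene can be a copy or an overlapping neighbour. Reads of those genes may have been split between the genes, so their values are uncertain.

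Promoter windows were in the RefSeq table for 200 members (233 windows, GRCm38.p6). In the 250 bases before the start, the members had a median GC content of 50% and 1.2 CpG per 100 bases, against 55.6% and 4.0 for other coding genes. The X-box core GTTGCC, bound by RFX factors, was found on either strand in 15.9% of member windows and 10.4% of all windows. The CRE core ACGTCA, bound by CREM, was found in 6.01% and 6.47%, and the MYB core AACNGTT in 3.00% and 3.80%. These matches are a description of letters and not of binding. The stretches below are shown because these 4 members recur in the results and hold an X-box core (in capitals, GTTGCC or its reverse complement GGCAAC) outside any annotated exon. 1700010I14Rik was among the most abundant members, 1700113H08Rik and 1700125H20Rik were nearly silent in some animals, and 4933425L06Rik (Nt5el, named for its likeness to an ecto-5′-nucleotidase) had higher values in KO.
1700010I14Rik (chr17:8988083-8988332, plus strand): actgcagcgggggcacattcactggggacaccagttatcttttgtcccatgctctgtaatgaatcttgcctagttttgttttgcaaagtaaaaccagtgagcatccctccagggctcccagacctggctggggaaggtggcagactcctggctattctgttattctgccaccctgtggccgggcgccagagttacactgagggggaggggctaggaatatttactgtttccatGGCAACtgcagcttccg
1700113H08Rik (chr10:87057796-87058044, plus strand): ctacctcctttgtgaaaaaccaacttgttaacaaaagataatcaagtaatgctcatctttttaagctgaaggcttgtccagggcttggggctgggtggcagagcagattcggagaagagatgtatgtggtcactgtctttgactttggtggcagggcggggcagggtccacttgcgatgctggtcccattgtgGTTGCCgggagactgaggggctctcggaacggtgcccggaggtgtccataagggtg
1700125H20Rik (chr11:85170846-85171095, plus strand): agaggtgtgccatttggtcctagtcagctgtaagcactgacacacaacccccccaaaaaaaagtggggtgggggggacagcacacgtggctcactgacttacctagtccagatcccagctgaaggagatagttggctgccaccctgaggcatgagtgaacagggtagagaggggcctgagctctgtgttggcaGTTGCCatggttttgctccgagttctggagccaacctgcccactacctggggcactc
4933425L06Rik (chr13:105081872-105082121, plus strand): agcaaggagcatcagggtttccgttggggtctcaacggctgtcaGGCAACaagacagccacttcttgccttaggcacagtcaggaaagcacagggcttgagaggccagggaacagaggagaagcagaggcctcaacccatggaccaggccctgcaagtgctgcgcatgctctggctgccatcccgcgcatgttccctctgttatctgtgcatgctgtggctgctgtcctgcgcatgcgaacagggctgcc
Starts are those of RefSeq, and the 1700125H20Rik stretch lies before a RefSeq start and inside an intron of a longer GENCODE transcript. The capitals begin 57 bases before the RefSeq start in both 1700113H08Rik and 1700125H20Rik, 17 bases before it in 1700010I14Rik and 206 bases before it in 4933425L06Rik.

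Library facts bear on all comparisons. Between 3375546 and 4287335 reads were counted per animal, and 3 reads, the limit used for detection, equalled 2.58 to 3.71 normalized counts. Pfn3 had 592, 383 and 373 normalized counts in WT, 136, 339 and 326 in Het and 74.7, 215 and 279 in KO, so the KO animals were below the WT animals but not at 0; whether the 3′ reads lie outside the deleted part was not tested. The 6 round spermatid markers had summed normalized counts between 6469 and 8589 in WT, between 4946 and 6612 in Het and between 3098 and 5301 in KO, with the lowest sum in KO replicate 2. The 4 elongating spermatid markers had sums of 233289 to 249362 in WT, 179063 to 214894 in Het and 192069, 123388 and 199672 in KO. For both sums all 3 KO animals lay below all 3 WT animals. Singly, Spaca1 and Acrv1 (round) and Prm1 (elongating) overlapped between WT and KO, and the other markers of these lists did not. The 6 spermatocyte markers summed to 3869 to 5017 in WT and 5597 to 6761 in KO, with no overlap of the sums. Among them Spo11, Hormad1 and Piwil1 overlapped between WT and KO, and the others did not. Sums for spermatogonia, Sertoli cells, Leydig cells, macrophages and erythrocytes overlapped between WT and KO, and 2 of the 4 epididymis markers, Adam7 and Lcn5, were at 0 in all animals. WT replicate 1, KO replicate 2 and, over other coding genes, Het replicate 1 stood apart from the other animals. The main counts and medians of KO against WT are given with and without WT replicate 1 and KO replicate 2. Leaving out Het replicate 1 moved counts of both Het comparisons, as given in the closing section.

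The members were abundant transcripts of WT testis. Their median level over 3 WT animals was 181 normalized counts (quartiles 46.5 and 541), against 18.6 for other coding genes. At least 10 normalized counts were reached by 224 members (90.0%) and 56.7% of other coding genes, at least 100 by 156 members (62.7%) against 25.4%, and at least 1000 by 32 members (12.9%) against 3.41%. Coding genes with clone names of other prefixes had a median of 9.13, and non-coding genes with the same prefixes one of 24.0. Of the 249 members, 246 had signal in at least 1 animal, 3 were at 0 in all and 5 did not pass 3 reads in any.

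**Figure D1:**
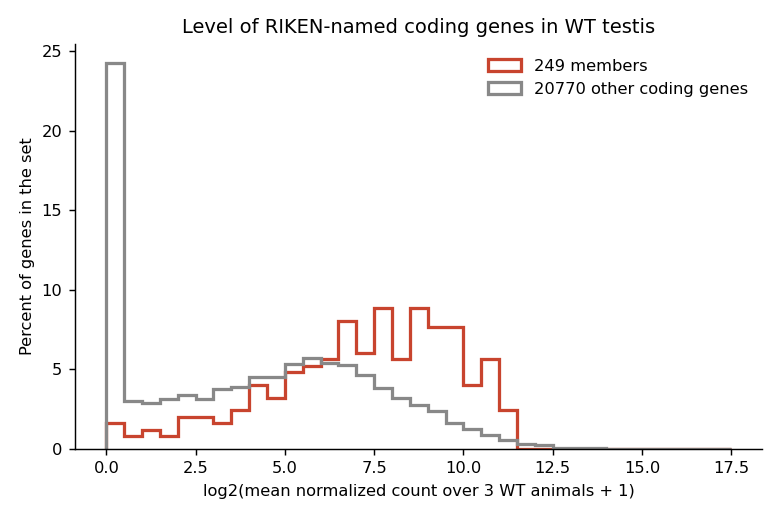
Distribution of mean levels over the 3 WT animals, as log2(normalized count + 1) on the x axis and percent of the genes in each set on the y axis, for the 249 members (red) and the 20770 other coding genes (grey). The members peak at high levels, with a median of 181 normalized counts, while the other coding genes pile up near 0 and have a median of 18.6.

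Levels differed between clone series. The 114 genes of the largest series, named like 1700010I14Rik, had a median of 445 normalized counts in WT, and the 74 of the next largest, named like 4930415O20Rik, one of 49.5. The 26 members on the X had a median of 52.6. The signal was spread over many genes, with the 10 most abundant members holding 21.6% of the summed member signal in WT and the 32 most abundant 50.8%.

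The 10 most abundant members in WT were 4933402J07Rik, 1700123L14Rik, 1700010I14Rik, 1700010B08Rik, Llcfc1, 1700009N14Rik, 1700034E13Rik, 4933416C03Rik (Taf7l2, named as a relative of the TFIID subunit TAF7), 1700016K19Rik and 1700030J22Rik. They ran from 2877 down to 1785 normalized counts and took ranks 156 to 349 among all genes. Taf7l2 stood among them through WT replicate 1 alone, since its mean fell from 1874 to 728 normalized counts and its rank among members to 45 without that animal, while 1700016K19Rik and 1700030J22Rik came to ranks 14 and 17. 4933402J07Rik (chr8:87563853-87589424, plus strand) had 4271, 2183 and 2177 normalized counts in WT, 1412, 2118 and 1660 in Het and 1701, 969 and 1531 in KO. Its order among the leaders rested on WT replicate 1, and the WT and KO animals did not overlap. 1700123L14Rik, which RefSeq lists as a transcribed pseudogene, went the other way in that animal, with 1554, 3338 and 3105 in WT and 2507, 2181 and 2754 in KO, and its groups overlapped. Llcfc1, a sperm protein needed for fusion with the egg, had 2635, 2046 and 1741 in WT, 1432, 1726 and 1446 in Het and 1447, 916 and 1453 in KO. All 3 of its KO animals lay below all 3 WT animals. 1700009N14Rik had 2396, 1957 and 2040 in WT, 2411, 2036 and 2248 in Het and 1387, 1465 and 1708 in KO, so WT and Het overlapped and KO lay below both. 1700030J22Rik had 2191, 1535 and 1628 in WT, 949, 1417 and 1337 in Het and 1052, 856 and 1082 in KO. In this gene both mutant groups lay below WT. Neighbours in the order of these 10 differed by less than the SD over the WT animals of at least 1 of the pair.

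As a group, the members took a smaller part of the KO libraries. They held 2.59%, 2.60% and 2.50% of the normalized counts in WT, 2.33%, 2.50% and 2.51% in Het and 2.33%, 1.91% and 2.38% in KO. The WT mean was 2.56% ± 0.0514, the Het mean 2.45% ± 0.103 and the KO mean 2.21% ± 0.261 (each SD over n = 3). WT and KO did not overlap, Het overlapped both, and KO replicate 2 was the lowest animal. In bulk tissue, fewer cells of a type and less RNA per cell cannot be told apart. The sum of the round spermatid markers given above was also lowest in KO replicate 2, as was each of them except Spaca1. The part of these markers in the member values was not tested.

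Per gene, KO replicate 2 stood apart most clearly. Among the 225 members with a mean of at least 10 over all animals, it was the lowest animal for 97 (43.1%), while it was the lowest for 13.7% of 12004 other coding genes. Its median difference from the 9-animal mean was -0.49 on the log2 scale over the members and 0.09 over the other coding genes. The other 8 animals had member medians between -0.10 and 0.20. WT replicate 1 was the highest animal for 80 members (35.6%) and the lowest for 51 (22.7%), and it was the highest for 24.9% and the lowest for 29.0% of other coding genes.

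**Figure D2:**
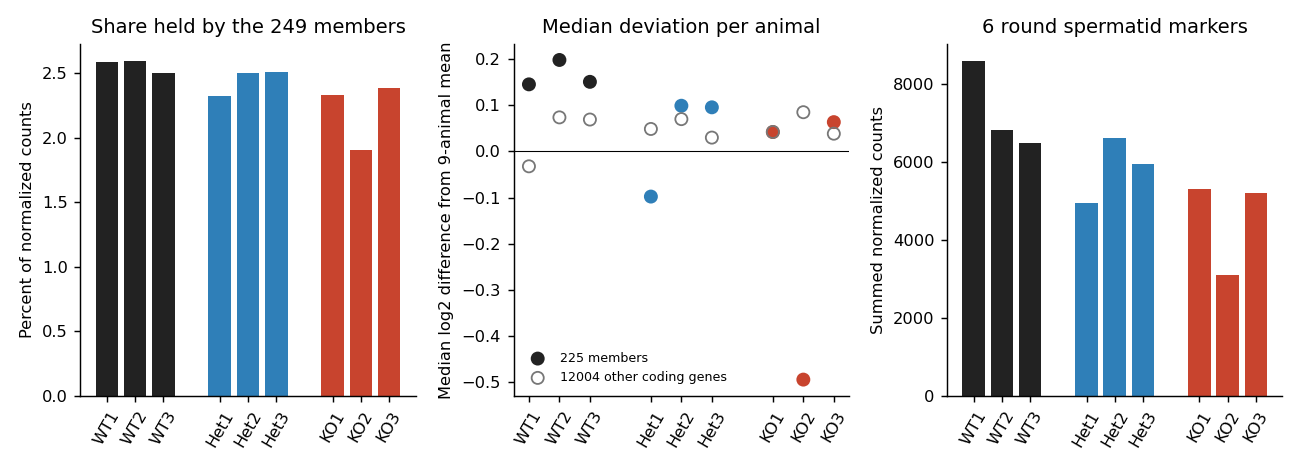
Left, percent of normalized counts held by the 249 members in each animal. Middle, median log2 difference from the 9-animal mean over 225 members (filled) and 12004 other coding genes (open). Right, summed normalized counts of the 6 round spermatid markers. Black is WT, blue Het and red KO, and each bar or point is 1 animal. KO replicate 2 is lowest in all 3 panels for the members and the markers, while its other coding genes lie at 0.09.

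The comparison of KO with WT asks which transcripts differ when profilin 3 is lacking. No member passed the test (limma, adjusted p under 0.05 with an absolute log2 fold change over 1.5), where 0.0352% of the 14223 genes tested were called. Of the 249 members, 226 passed the filter on low values and were tested. The members lay lower in KO on balance, with a median log2 fold change of -0.26 (155 below 0 and 71 above), against 0.02 over all genes tested. An unadjusted p under 0.05 was reached by 33 members with lower values in KO (14.6%, against 5.03% of all genes) and 3 with higher values (1.33%, against 3.04%). Without KO replicate 2 these were 16 (7.08%, against 3.12% of all genes) and 3 (1.33%, against 1.3%), and without WT replicate 1 they were 28 (12.4%, against 4.95%) and 3 (1.33%, against 3.93%). The smallest limma adjusted p among members was 0.402.

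All 3 KO animals lay below all 3 WT animals for 59 members (26.1%), against 10.5% of all genes tested, and above them for 6 (2.65%), against 9.41%. Without KO replicate 2, 60 members lay wholly lower (26.5%, against 14.6% of all genes) and 18 wholly higher (7.96%, against 14.2%), and the median was -0.12. Without WT replicate 1, 89 lay wholly lower (39.4%, against 17.5%) and 11 wholly higher (4.87%, against 14.6%), and the median was -0.34. These values were computed after the animals had been seen to stand apart. Leaving an animal out over the same genes can only keep or raise the counts of genes wholly lower or higher, here and below. Those counts therefore cannot show that a difference persists without that animal. The median of other coding genes moved from 0.04 to 0.02 without KO replicate 2. Over the 226 members, the median log2 difference from the WT mean was -0.10 in KO replicates 1 and 3 and -0.64 in KO replicate 2.

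**Figure D3:**
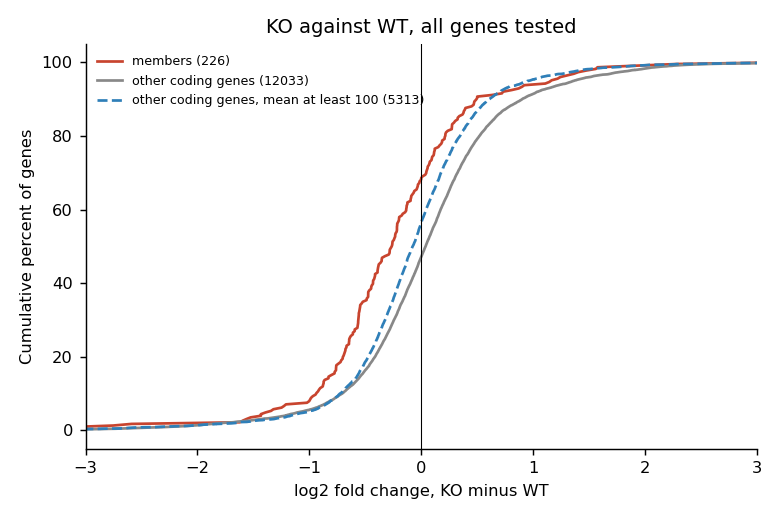
Cumulative percent of genes (y axis) by log2 fold change of KO minus WT (x axis, shown from -3 to 3) for the 226 tested members (red), the 12033 other coding genes tested (grey) and the 5313 of those with a mean of at least 100 normalized counts (blue, dashed). Around the middle of the plot the member curve lies to the left of both others, with medians of -0.26, 0.04 and -0.08.

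The gap was also present among well-expressed genes. Among the 152 members with a mean of at least 100 normalized counts, the median was -0.39 and 49 lay wholly lower in KO (32.2%), while other coding genes of that level had a median of -0.08 and 15.9%. Without KO replicate 2 the medians were -0.20 and -0.05, with 49 of these members wholly lower (32.2%, against 19.8%). Wholly higher were 3 with all animals (1.97%, against 6.96% of other coding genes of that level). Without KO replicate 2 they were 10 (6.58%, against 12.0%). Non-coding genes with the same prefixes had a median of -0.20 over 535 genes, and coding genes with clone names of other prefixes one of 0.04 over 180. The 25 tested members on the X had a median of 0.04, with 2 wholly lower (8.0%) and 1 wholly higher, and the 201 on autosomes one of -0.35, with 57 wholly lower (28.4%) and 5 wholly higher, beside 10.5% lower and 9.41% higher over all genes tested. Without KO replicate 2 these medians were 0.20 and -0.16. Wholly higher were then 6 of 25 (24.0%) and 12 of 201 (5.97%), against 14.2% of all genes tested. Wholly lower were 3 of 25 (12.0%) and 57 of 201 (28.4%), against 14.6%. The difference between these groups was not tested.

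Members that have gained a symbol also lay lower in KO on balance. Of the 48 tested, 17 lay wholly lower in KO (35.4%, against 10.5% of all genes and 23.6% of members with only a clone name). Wholly higher were 2, Potegl and Nt5el (4.17%, against 9.41% of all genes), and the median was -0.39. Without KO replicate 2 the median was -0.23, with 17 wholly lower (35.4%, against 14.6% of all genes) and 5 wholly higher (10.4%, against 14.2%). The 3 described here were chosen after their values were seen. Spem2, a relative of the sperm maturation gene Spem1, had 1736, 1511 and 1718 normalized counts in WT and 1034, 824 and 1176 in KO. Its log2 fold change was -0.72 ± 0.189 (SE), with a limma adjusted p of 0.610. Tex48 had 802, 749 and 746 in WT and 482, 293 and 509 in KO, with the WT animals closer to each other than the KO animals. Fam166c (1700001C02Rik) had 534, 451 and 455 in WT and 285, 235 and 332 in KO. Each of these kept its groups apart, and none passed the test after adjustment.

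By the naming rule, the members with the largest differences among those wholly lower in KO were 4930415O20Rik, 1700029H14Rik, 4921509C19Rik, 1700129C05Rik, Tex50 (4930469G21Rik) and 4930590J08Rik. 4930415O20Rik (chr15:98571004-98589580, plus strand) had 35.9, 12.5 and 11.6 normalized counts in WT, 0, 16.8 and 0 in Het and 0 in all 3 KO animals. It passed the filter through WT alone, so its difference was partly set by the filter. Against the limit of 3 reads per library it was at least 7.36-fold lower in KO. 1700029H14Rik (chr8:13550733-13562461, minus strand) had 1036, 1775 and 1844 in WT, 322, 1807 and 671 in Het and 612, 327 and 581 in KO. Its KO mean was 506 ± 156 against 1552 ± 448 in WT (SD, n = 3), a log2 fold change of -1.62 ± 0.346 (SE) with a limma adjusted p of 0.522. Het replicate 2 sat with the WT animals and the other Het animals with KO.

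DESeq2 on the recovered reads called 3 members, 0.71% of all genes being called, while edgeR called 0 (0.0352% of all genes). These were 4930415O20Rik (DESeq2 adjusted p = 0.00227), 1700029H14Rik (0.00899) and 1700113H08Rik (0.00598). As 4930415O20Rik passed the filter through WT alone, its call was also partly set by the filter. 1700113H08Rik (chr10:87058045-87230589, plus strand) had 3.71, 665 and 738 normalized counts in WT, 1.89, 787 and 11.6 in Het and 17.2, 11.6 and 13.4 in KO. WT replicate 1 was thus at 3 reads while the other WT animals were high, and the groups overlapped. Its limma log2 fold change was -3.15 ± 1.94 (SE, adjusted p = 0.638), and without WT replicate 1 it was -5.56 with an adjusted p of 0.00288. The latter fit leaves out the only WT animal with a low value and was picked out after the values were seen. Het replicates 1 and 3 were low as well. Its X-box core is printed above.

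The rest of the lower set spanned high and low genes. 1700129C05Rik had 1506, 1061 and 1246 normalized counts in WT and 922, 138 and 650 in KO, a log2 fold change of -1.53 that leaned on KO replicate 2. Tex50 had 215, 670 and 130 in WT and 90.2, 89 and 117 in KO, with the WT animals further apart than WT from KO. 4921509C19Rik had 76.8, 39.6 and 29.0 in WT and 24.0, 6.77 and 17.9 in KO. 4930590J08Rik had 18.6, 14.5 and 28.0 in WT and 10.3, 10.6 and 2.68 in KO, close to the limit of detection.

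The 6 members wholly higher in KO were 1700012A03Rik, 1700003E16Rik, 4930447C04Rik, Nt5el, 4930595M18Rik and Potegl (4931423N10Rik). 1700012A03Rik (chr6:32050246-32058921, plus strand) had 47.0, 186 and 418 normalized counts in WT, 85.0, 123 and 851 in Het and 939, 476 and 962 in KO. Its KO mean was 792 ± 274 against 217 ± 187 (SD, n = 3), a log2 fold change of 2.28 ± 0.793 (SE, limma adjusted p = 0.610), and 1 Het animal sat with KO. 4930447C04Rik (chr12:72881109-72940774, minus strand), which encodes SIX6OS1, a central element protein of the meiotic synaptonemal complex, had 94.1, 59.8 and 101 in WT, 211, 68.9 and 122 in Het and 153, 185 and 133 in KO. Its log2 fold change was 0.90 ± 0.279 (SE, limma adjusted p = 0.610), and the summed spermatocyte markers were also higher in KO. 1700003E16Rik had 11.1, 12.5 and 9.66 in WT and 25.8, 20.3 and 37.5 in KO. It was a low gene in all animals, with a log2 fold change of 1.22. Nt5el had 14.9, 41.5 and 46.3 in WT and 48.1, 65.8 and 50.9 in KO, the nearest WT and KO animals being close. 4930595M18Rik and Potegl differed less, with log2 fold changes of 0.49 and 0.39.

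**Figure D4:**
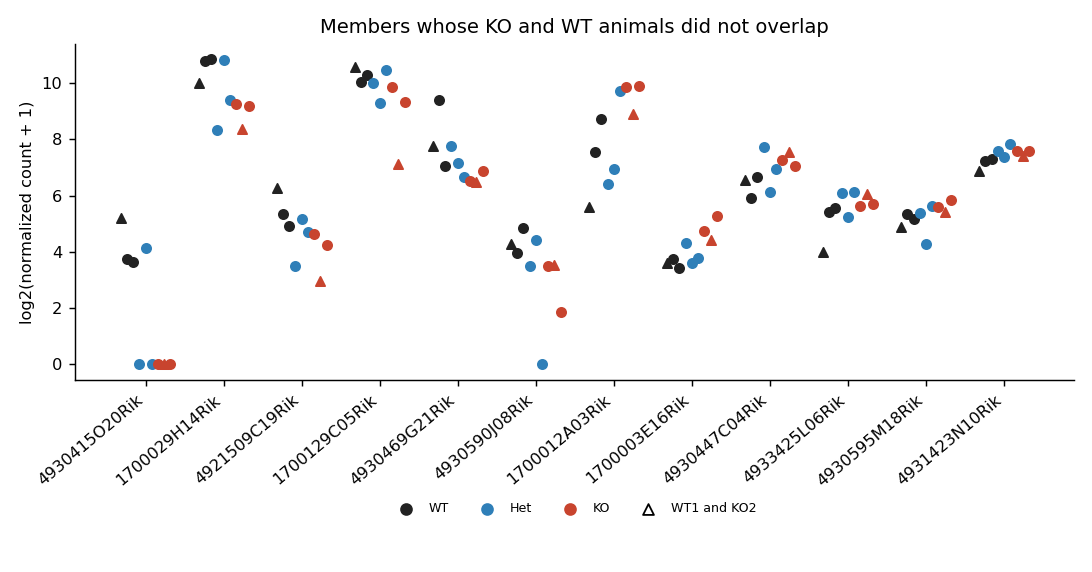
log2(normalized count + 1) in each of the 9 animals for the 6 members wholly lower (left) and the 6 wholly higher (right) in KO than in WT with the largest differences. Black is WT, blue Het and red KO, and triangles mark WT replicate 1 and KO replicate 2. 4930415O20Rik is at 0 in the 3 KO animals, and 1700012A03Rik has KO animals at 476 to 962 normalized counts above WT at 47.0 to 418.

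The comparison of Het with WT asks whether loss of 1 allele goes with different transcript levels, and it shares the WT animals with the comparison above. No member was called by limma, nor was any gene (0.0% of 14216 tested). edgeR called 0 members (0.0% of all genes), and DESeq2 called 0 (0.218% of all genes). The 226 tested members had a median log2 fold change of -0.12, and an unadjusted p under 0.05 was reached by 3 with lower values in Het (1.33%, against 1.89% of all genes) and 0 with higher values (against 1.46%). All 3 Het animals lay below all WT animals for 21 members (9.29%, against 6.49% of all genes) and above them for 7 (3.10%, against 6.76%). 1700001C19Rik had 2029, 1680 and 1611 normalized counts in WT, 766, 1431 and 133 in Het and 856, 653 and 1170 in KO. All 6 mutant animals lay below WT, with Het the more spread. 4930522H14Rik had 279, 49.2 and 391 in WT, 35.9, 30.7 and 36.0 in Het and 483, 31.9 and 47.4 in KO, a Het against WT log2 fold change of -2.33 ± 0.765 (SE, limma adjusted p = 0.779). Its values were either under 50 or over 250, with KO replicate 1 among the high animals. Ccdc192 (1700011I03Rik) followed them among the members wholly lower in Het, with a log2 fold change of -0.95, and had 709, 369 and 341 in WT, 211, 270 and 218 in Het and 286, 154 and 288 in KO. Of those higher in Het, 1700014D04Rik had 97.8, 4.82 and 204 in WT, 235, 224 and 291 in Het and 165, 176 and 223 in KO, so its log2 fold change of 2.35 rested largely on WT replicate 2. Ct55 (4930502E18Rik) and 4930449I24Rik were low, with WT animals at 0 to 24.1 and Het animals at 17.7 to 47.6 normalized counts.

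The comparison of KO with Het asks what the second allele adds, and it shares animals with both others. No member was called by limma (0.0558% of 14343 genes), edgeR called 0 (0.0349%) and DESeq2 called 1 (0.265%). Of the 225 tested, 5 had an unadjusted p under 0.05 with lower values in KO (2.22%, against 1.82% of all genes) and 4 with higher values (1.78%, against 1.74%). The median log2 fold change was -0.18 over the members, against -0.003 over all genes tested. Over the members it was -0.018 without KO replicate 2. All 3 KO animals lay below all Het animals for 16 members (7.11%, against 4.9% of all genes) and above them for 6 (2.67%, against 5.12%). The member DESeq2 called was 4933405L10Rik (chr8:105707655-105710246, plus strand), which had 8.67, 110 and 122 normalized counts in WT, 7.56, 14.9 and 12.7 in Het and 86.7, 53.2 and 76.9 in KO. Het lay below KO, with a log2 fold change of 2.54 ± 0.341 for KO against Het (SE, limma adjusted p = 0.225). WT replicate 1 sat with the Het animals, and KO and WT overlapped. Exons of Enkd1 lie on its opposite strand.

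The other members named for this comparison were 1700016D06Rik, 1700088E04Rik, 4930449I24Rik, 1700011M02Rik and 1700003E16Rik. 1700016D06Rik (chr8:11654924-11701063, minus strand) had 362, 396 and 466 normalized counts in WT, 511, 489 and 561 in Het and 204, 290 and 240 in KO. Its groups did not overlap, Het being highest and KO lowest, with a log2 fold change of -1.10 ± 0.179 for KO against Het (SE, limma adjusted p = 0.444). DESeq2 gave an adjusted p of 0.00042 and a log2 fold change of -1.09, under the size needed for a call. 1700011M02Rik on the X, a long non-coding RNA in RefSeq, had 183, 263 and 143 in WT, 148, 170 and 164 in Het and 245, 270 and 225 in KO. KO lay above Het but not above WT. 1700088E04Rik had 36.8, 32.6 and 28.6 in Het and 14.6, 7.74 and 17.9 in KO, and 100% of its 3′ windows are shared with Micall1 on the opposite strand, so its reads cannot be assigned with certainty. 4930449I24Rik shares 48.1% of its windows with copies.

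A further pattern was animals that differed by more than a factor of 8 (3 on the log2 scale) within the data set. Such a range was found for 33 of the 225 members with a mean of at least 10 (14.7%), against 19.9% of other coding genes. The 6 widest were 1700020L24Rik, Taf7l2, 1700113H08Rik, 1700125H20Rik, Efcab15 (1700023F06Rik, an EF-hand gene by name) and 4930432K21Rik. 1700125H20Rik (chr11:85170404-85181145, plus strand) had 0, 177 and 162 normalized counts in WT, 8.50, 161 and 24.3 in Het and 186, 12.6 and 170 in KO. It was high in 5 animals and low in 4, with both kinds in every genotype. The Sertoli cell marker Gata4 was at 0 in the same 4 animals and at 21.2 to 34.8 in the other 5. Amhr2, also a Sertoli marker, was at 3.78 to 15.5 in those 4 and KO replicate 3, and at 520 to 624 elsewhere. Cst12, Defb36, Sox9 and Aard stayed above 100 in every animal. Of the 249 members, 240 are listed as assembled loci, and whether read assignment to such loci gave these values was not tested. Efcab15 had 186, 85.9 and 137 in WT, 0, 135 and 9.52 in Het and 82.5, 0 and 122 in KO. It was low in Het replicates 1 and 3 and KO replicate 2, all of them also low for 1700125H20Rik. 4930432K21Rik (chr8:84148025-84172590, plus strand), which encodes BRME1, a partner of BRCA2 in meiotic recombination, had 16.1, 478 and 3.86 in WT, 16.1, 7.45 and 351 in Het and 394, 216 and 377 in KO. All KO animals were high, and 1 WT and 1 Het animal were as high. Taf7l2 had 4166, 751 and 706 in WT, 1025, 601 and 714 in Het and 750, 10.6 and 825 in KO, with 7 animals between 601 and 1025 and WT replicate 1 and KO replicate 2 far to either side. Exons of Ptprr lie on its opposite strand. 1700020L24Rik had 2.48, 7.72 and 621 in WT and no more than 2.79 in any Het or KO animal. The high value stood in WT replicate 3 alone, and 92.5% of its 3′ windows are shared with Mmp28 on the opposite strand.

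**Figure D5:**
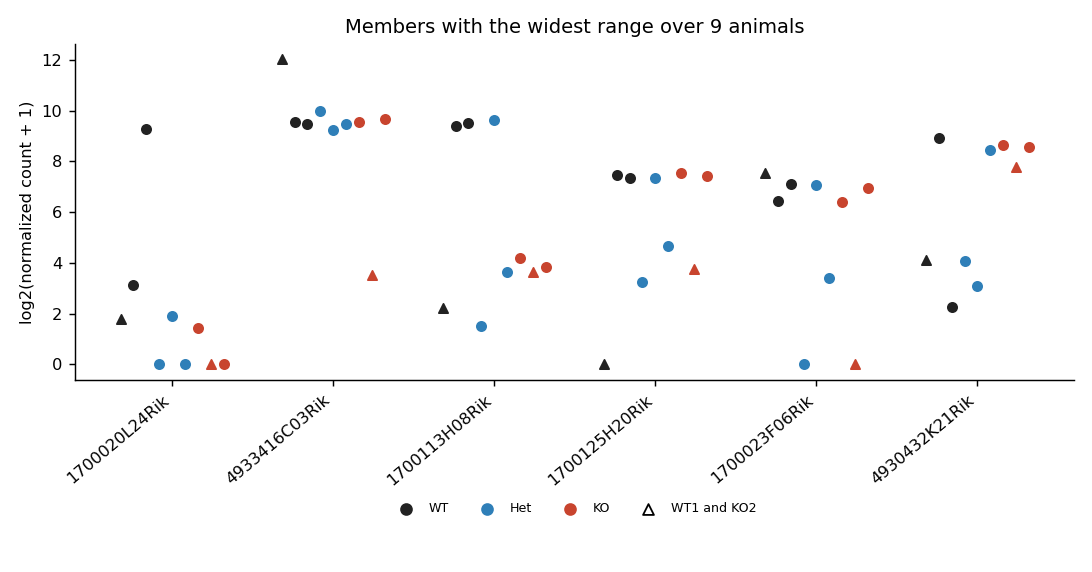
log2(normalized count + 1) in each of the 9 animals for the 6 members with the widest range over all animals. Black is WT, blue Het and red KO, and triangles mark WT replicate 1 and KO replicate 2. High and low animals occur within a genotype, as in 1700125H20Rik, where 5 animals lie between 161 and 186 normalized counts and 4 between 0 and 24.3.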

How the data were processed

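Testis QuantSeq libraries from 9 mice were compared, grouped by genotype as the labels give it. The authors trimmed reads with Trim Galore 0.4.5, used HISAT2 2.1 for alignment to GRCm38 and StringTie 1.3.3 for assembly and counting, and deposited a signal value per gene, the count over a size factor of each animal (100% of nonzero values were whole multiples of 1 read within 0.01). They were therefore tested with limma 3.58.1 (trended eBayes, R 4.3.3) on log2(value + 1) over all genes with at least 10 in at least 3 of the 6 animals compared, with Benjamini-Hochberg adjustment, and fold changes of low genes are understated. edgeR 4.0.16 and DESeq2 1.42.0 on the recovered reads were alternatives, and the functions were tested on simulated data. Members were named by level (10 highest in WT), by calls, by size among members whose groups did not overlap (6 or 3 per direction) and by range (6 widest), and others are marked where they appear. Members, lists and rules were chosen with earlier results of these data known. Shared 50-base windows and exon overlaps were computed from GENCODE M21, and promoters were read from RefSeq (GRCm38.p6), using pandas 2.3.3 and numpy 2.4.6 in Python 3.11.15. Nothing states that the animals of a genotype came from separate litters, so p-values measure the spread between these samples.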

Additional observations from a re-analysis of the deposited data

How the results depend on the processing

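In KO against WT, limma called 0 members, DESeq2 called 3, and leaving out each animal gave 0 to 1 (1700113H08Rik, without WT replicate 1). Members with an unadjusted p under 0.05 numbered 36 (15.9%, against 8.07% of all genes tested). They numbered 19 to 37 when each animal was left out (19 without KO replicate 2), and the median log2 fold change ran from -0.38 to -0.12. With an animal left out, chosen after seeing the data, 60 to 89 members lay wholly lower in KO and 9 to 18 wholly higher, against 59 and 6. Of all genes tested, 14.6% to 17.5% lay wholly lower and 13.1% to 15.1% wholly higher, against 10.5% and 9.41% with all animals. Leaving out an animal could only keep or raise these counts. In Het against WT, 3 members had an unadjusted p under 0.05 (1.33%, against 3.34% of all genes tested). The count was 7 with DESeq2 and 9 with all 9 animals in 1 fit. It was 0 to 13 when each animal was left out (0 without Het replicate 1, 13 without Het replicate 2, 9 without WT replicate 3). In KO against Het, DESeq2 called 1 member, and 9 had an unadjusted p under 0.05 (4.0%, against 3.56% of all genes tested). Leaving out each animal gave 7 to 19 such members (19 without Het replicate 1, 15 without KO replicate 3) and a median of -0.27 to -0.018. The share over all genes at that p is not given for the other settings in this section. Shifts in these counts are therefore not read as particular to the members. The member share in WT was 2.49% without the most abundant member. Of 25 named results, none changed direction, and DESeq2 or leaving out WT replicate 1 brought 5 of their values past the threshold. All but 1700113H08Rik had groups that did not overlap, so leaving out an animal could not reverse them. Their constant direction is therefore no sign of robustness. Same-numbered animals did not deviate together (correlations of -0.14 to 0.19 over 14865 genes), and with the replicate number as a block 0 members were called, with 29 (KO against WT) and 6 (Het against WT) at an unadjusted p under 0.05. At 3 reads, levels under about 4 normalized counts could not be told from 0.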
